A study of Mus musculus with 18 samples.

Results

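The EGR, NR4A and NFAT activation factors are 10 genes of the T cell activation response, described here in cultured mouse Th17 cells: Egr1, Egr2 and Egr3, Nr4a1, Nr4a2 and Nr4a3, Nfatc1 and Nfatc2, and the immediate early genes Ier2 and Ier3. The members were the rows of the deposited expression table that carry these symbols, 10 of 45703 genes, and no measured value was used to find them. All 10 passed the filter on low values, a level of at least 1 TPM (transcript abundance scaled to gene length and to the total of its library) in at least 3 libraries, which left 14229 genes for testing. The series compared Th17 cells of 3 genotypes, each without and with acetate, in 6 groups of 3 libraries. The label of genetic background starts at C57BL/6 and its number rises over consecutive samples, so the labels do not settle the strain. WT cells are labelled wild type. GLUT3KO cells are Slc2a3-fl/fl Cd4-cre so that the gene of the glucose transporter GLUT3 is targeted, and ACLYKO cells are Acly-fl/fl Cd4-cre, which targets ATP-citrate lyase, the enzyme that makes cytosolic acetyl-CoA from citrate. In both knockouts the Cre is driven by Cd4, so the deletion is made in T cells while they develop in the mouse, and the labels name no floxed allele and no Cre for WT. Naive T cells of all 6 groups were stimulated through CD3 and CD28 with Th17-polarizing cytokines for 48 h, acetate was present or absent for a further 24 h, and all cells were then restimulated for 5 h with PMA and ionomycin together with brefeldin A and monensin. The sample protocols give 20 mM acetate and the series text 10 mM. No group was left unrestimulated, so every level below is a level after restimulation, and induction itself was not measured.

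These genes are read as a record of recent signalling in T cells. PMA stands in for diacylglycerol and activates protein kinase C and the Ras-ERK cascade, while ionomycin raises cytosolic calcium and thereby activates calcineurin. ERK activates serum response factor and its partners at the promoters of EGR genes, which encode zinc finger factors; EGR2 and EGR3 are also known for restraining T cell activation. Calcineurin dephosphorylates NFAT proteins, which then enter the nucleus, and the NR4A genes, which encode orphan nuclear receptors, are induced by calcium and CREB-family signals and limit effector function in persistently stimulated T cells.

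The promoters of the NR4A genes and of Egr2 are shown because these genes moved together or apart in the comparisons below. Windows from 250 bases before to 50 after an annotated start (RefSeq, GRCm38.p6) were matched for 6 of the 10 members: Egr2, Nr4a1, Nr4a2, Nr4a3, Nfatc2 and Ier3. In the sequences, capitals mark the TGACG core of the cyclic AMP response element on either strand and, in Egr2, the CArG box, the sequence that serum response factor binds. The stretches printed below are parts of these windows of 300 bases. They lie at chr15:101266596-101266845 (plus strand) for Nr4a1, chr2:57124004-57124253 (minus strand) for Nr4a2, chr4:48045055-48045106 (plus strand) for Nr4a3 and chr10:67537619-67537868 (plus strand) for Egr2. For Nr4a3 52 bases are printed: 23 before the annotated start of the gene and 29 past it. Its window is set on a later annotated start.
Nr4a1: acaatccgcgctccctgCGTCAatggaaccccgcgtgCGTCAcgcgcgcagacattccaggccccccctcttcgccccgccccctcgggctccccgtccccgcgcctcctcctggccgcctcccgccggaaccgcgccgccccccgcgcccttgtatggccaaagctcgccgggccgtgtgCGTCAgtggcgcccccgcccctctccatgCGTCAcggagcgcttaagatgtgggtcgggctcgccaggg
Nr4a2: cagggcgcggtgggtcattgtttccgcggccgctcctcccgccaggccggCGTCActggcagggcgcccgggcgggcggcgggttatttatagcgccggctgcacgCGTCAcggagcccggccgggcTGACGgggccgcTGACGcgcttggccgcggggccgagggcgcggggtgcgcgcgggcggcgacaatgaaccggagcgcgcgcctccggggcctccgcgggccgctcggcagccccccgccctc
Nr4a3: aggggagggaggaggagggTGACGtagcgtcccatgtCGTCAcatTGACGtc
Egr2: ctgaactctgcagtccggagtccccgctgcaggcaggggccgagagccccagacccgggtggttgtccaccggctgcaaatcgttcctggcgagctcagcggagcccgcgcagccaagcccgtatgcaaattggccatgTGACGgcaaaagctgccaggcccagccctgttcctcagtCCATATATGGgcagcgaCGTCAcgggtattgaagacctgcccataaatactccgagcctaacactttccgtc
The windows of Nr4a1, Nr4a2 and Nr4a3 each held 4 TGACG cores on either strand, 3 of which fall in the printed stretch of Nr4a3, 2 of them wholly past the annotated start of the gene. Among all 32851 promoter windows of 300 bases, 20.8% held at least 1 such core and 1.03% held 3 or more. The Egr2 window held 2 of these cores and 1 CArG box, a box found in 1.63% of all windows. Of the 5 windows listed for Egr2 3 that overlap each other hold these matches. The one shown was picked from the 5 by its matches, whereas 1.63% is a share of single windows. Another Egr2 window, chr10:67537316-67537615, held 1 CArG box and no TGACG core, and chr10:67535249-67535548 held neither. No TGACG core and no CArG box was found in the windows of Nfatc2 and Ier3. The NFAT core GGAAA, present on either strand in 61.3% of all windows, occurred 3 times in 1 Nfatc2 window and 1 time in the other, 2 times in that of Ier3 and 1 time in that of Nr4a2. It occurred 1 time in each of the 3 overlapping Egr2 windows and 3 times in another Egr2 window. The EGR site GCGNGGGCG, present in 5.55% of all windows, occurred 1 time each in those of Nr4a1 and Nr4a2. These matches describe the letters of each window, and binding was not measured.

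Depth and identity were as follows. The 18 libraries held 18.7 to 30.1 M reads (M, 1000000 reads), recovered from the TPM values, with a median of 23.3 M. All 9 Th17 marker genes checked were above the filter, with a summed level of 1162 to 5020 TPM, against 0.130 to 1.93 TPM for 5 myeloid markers, of which C1qa was at 0 in every library, 0.226 to 5.59 TPM for 4 B cell markers and 3.98 to 19.9 TPM for 2 CD8 T cell markers. The CD8 T cell markers summed to 3.98 to 8.71 TPM in ACLYKO and 15.4 to 17.7 TPM in ACLYKO with acetate, and the B cell markers to 0.571 to 1.98 TPM and 4.23 to 5.59 TPM. The summed Th17 markers were 2155 TPM or more in the WT and all acetate groups but 1267 to 1577 TPM in GLUT3KO and 1162 to 1235 TPM in ACLYKO without acetate, and the part of these markers in the results was not tested. Acly was 396 ± 4.27 TPM (SD, n = 3) in WT and 11.3 ± 3.85 TPM in ACLYKO. Slc2a3 had 17.7 ± 2.91 TPM in the WT libraries, against 6.17 ± 2.10 TPM in GLUT3KO. Its level in ACLYKO, 10.2 ± 3.91 TPM, overlapped that of GLUT3KO. With acetate Slc2a3 was 10.6 ± 2.64 TPM in GLUT3KO and 31.0 ± 1.53 TPM in WT. These whole-gene levels do not show whether the deleted stretch was transcribed. The labels do not tie the 3 libraries of a group to different mice; the tests below therefore set differences against a library-to-library spread that may be technical. RNA came from whole cultures, so a lower level can mean fewer expressing cells or less RNA per cell, which cannot be told apart.

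Some libraries stood apart from others of their group. The main axis of variation within groups held 63.6% of the within-group variance, and 4 libraries scored above 20 on it, all of them replicate 1: WT (35.6), GLUT3KO (31.9), ACLYKO (90.2) and ACLYKO with acetate (29.5). The members lay on this axis to very different degrees. Over 18 libraries, deviations from the group mean correlated with the score at -0.92 for Ier3, -0.88 for Ier2, 0.88 for Nr4a2, 0.78 for Egr1 and -0.70 for Egr3. The remaining members, Egr2, Nr4a1, Nr4a3, Nfatc1 and Nfatc2, lay between -0.28 and 0.26. The members are among the genes that define the axis, so these correlations are a description. Results are therefore given with and without these 4 libraries, called the high-axis libraries below, a choice made after the data had been seen. Leaving them out removes spread that the tests are set against. Calls over all genes in GLUT3KO against WT rose from 4753 to 8545. The p values without these libraries therefore tend to be too small and are given as a description.

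**Figure D1:**
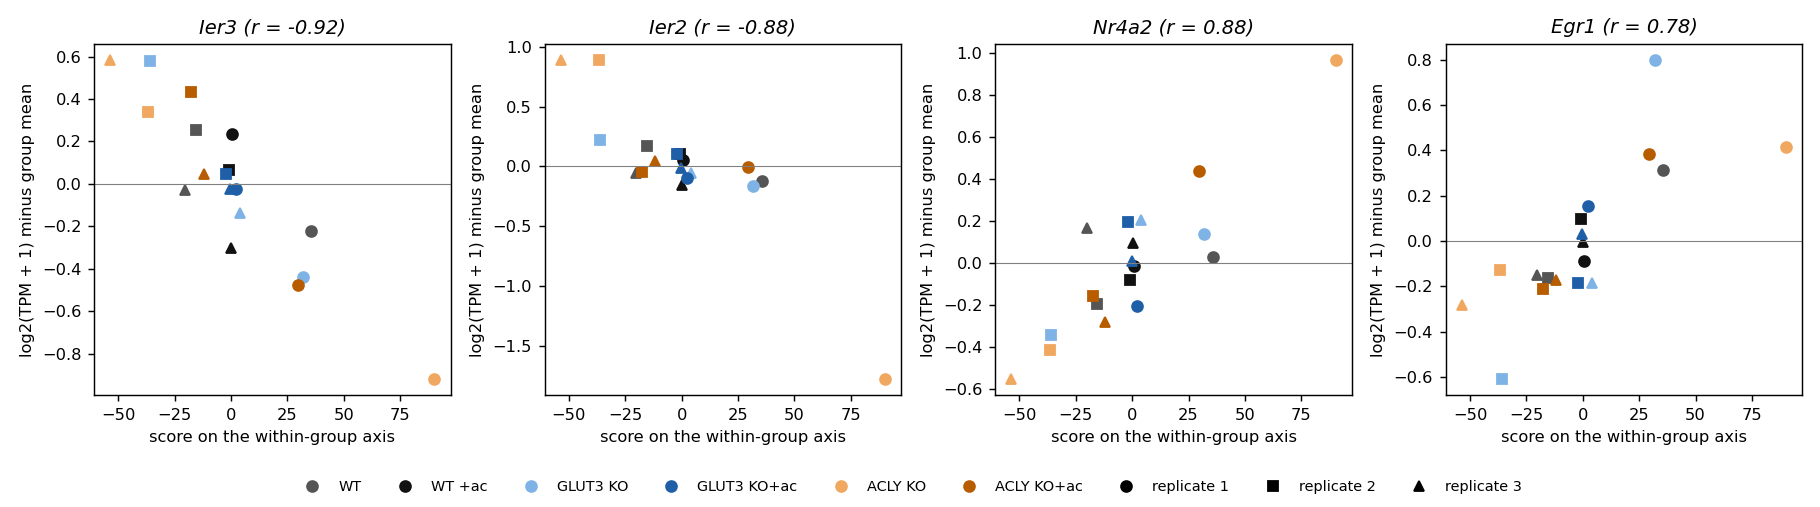
Deviation of log2(TPM + 1) from the group mean (vertical axes) against the score of each library on the main axis of within-group variation (horizontal axes), for the 4 members with the strongest relation, in 18 libraries; color marks the group and shape the replicate number. The ACLYKO replicate 1 library lies farthest out, at a score of 90.2.

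Absolute levels differed widely among the members. Egr1 was the most abundant member in WT at 248 ± 49.4 TPM, followed by Ier2 at 194 ± 21.3 TPM and Egr2 at 62.9 ± 3.88 TPM. Nfatc1 (43.2 ± 9.91 TPM), Ier3 (25.6 ± 4.44 TPM), Egr3 (18.1 ± 1.76 TPM), Nr4a1 (15.8 ± 3.02 TPM) and Nfatc2 (15.5 ± 1.75 TPM) were intermediate. Nr4a3 (9.65 ± 1.27 TPM) and Nr4a2 (4.94 ± 0.737 TPM) were the least abundant. All changes below are differences of log2(TPM + 1), which understate the change of genes at low levels, with limma's standard error and an adjusted p over all 14229 genes. A difference was called when that p was under 0.05.

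**Figure D2:**
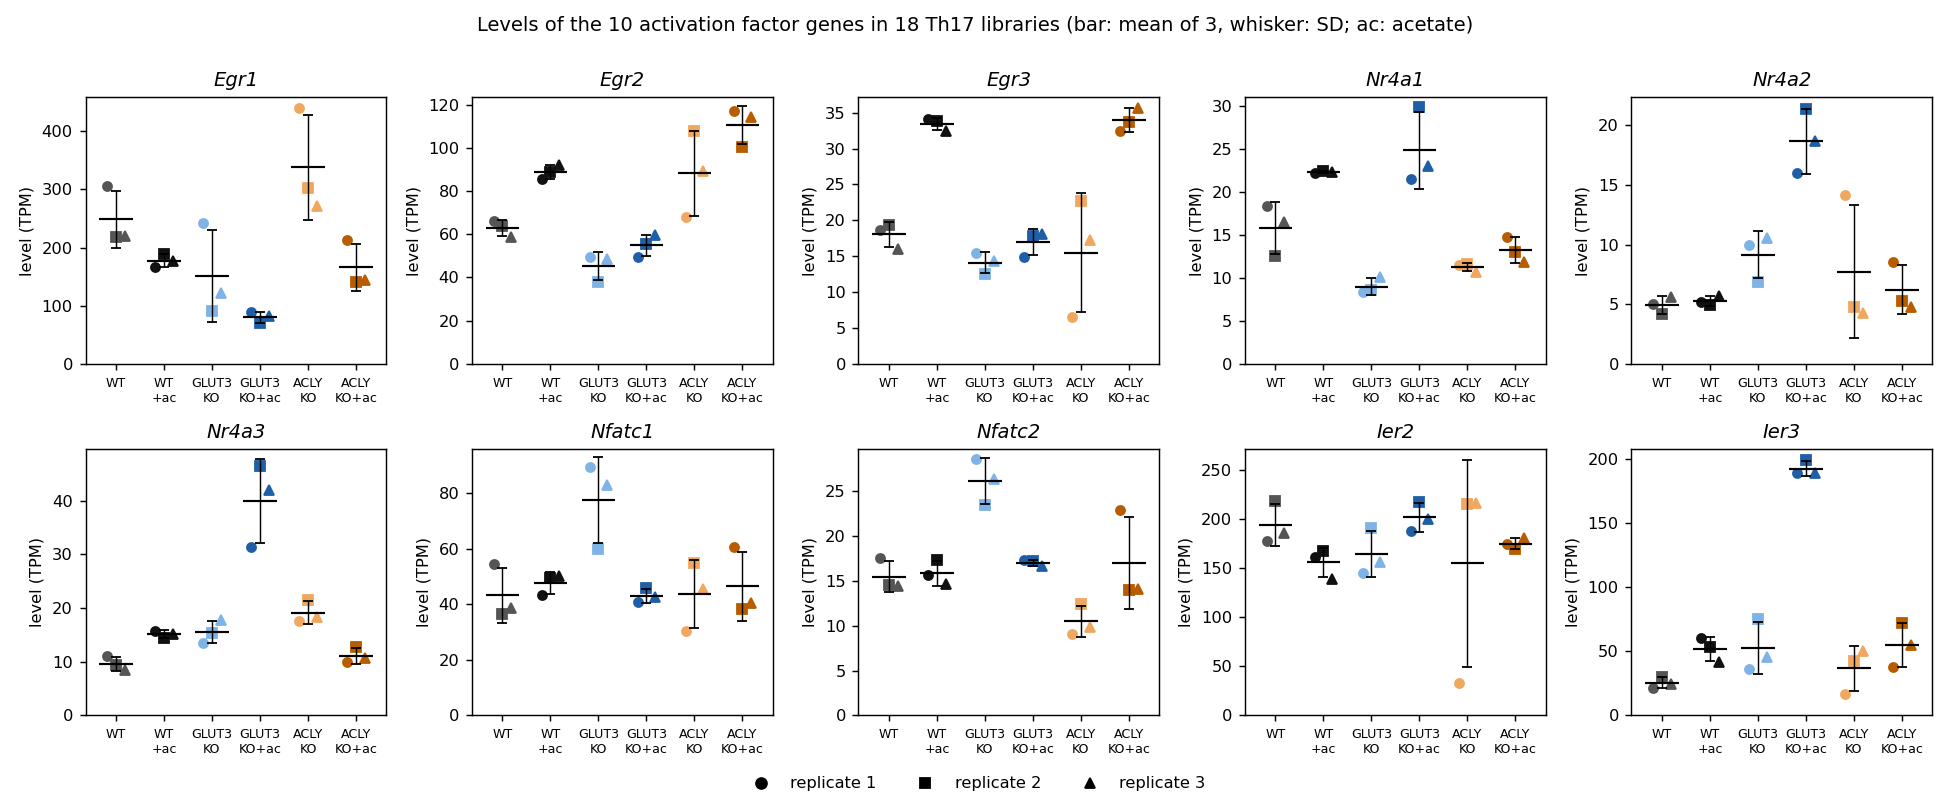
Levels in TPM (vertical axes) of the 10 members in the 6 groups (horizontal axes), with each library as a point shaped by replicate number, the mean of 3 as a bar and the SD as a whisker. Nr4a2, Nr4a3 and Ier3 were highest in GLUT3KO with acetate, at means of 18.7, 39.96 and 192 TPM, apart from every other group.

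Without acetate, GLUT3KO cells had higher Nfatc1, Nfatc2, Nr4a3 and Ier3 and lower Nr4a1, Egr1 and Egr2 than WT cells. In that comparison 4 of 10 members were called higher, against 24.9% of all genes tested, and 3 lower, against 8.47%. The calls depended on scaling. With median-ratio scaling 3 members were higher and 3 lower, with quantile normalization 1 and 4, and with voom on recovered reads 1 and 3. The calls over all genes shifted as well, from 3548 higher and 1205 lower to 2631 and 2236 with median-ratio scaling. They were 2582 and 2400 with quantile normalization and 2429 and 1912 with voom. The libraries of the groups did not overlap for 8 members, against 45.5% of all genes. In ACLYKO against WT 1 member was higher and 1 lower, against 12.7% and 6.38% of all genes, and 4 members did not overlap, against 26.8%. GLUT3KO against ACLYKO gave 2 higher and 2 lower, against 25.2% and 15.2%, with 5 members not overlapping, against 40.9%. The 2 knockouts share their WT libraries in the first comparisons, so the lists of changed members are not set against each other.

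With acetate, 1 member was called higher and 0 lower in WT, against 4.22% and 2.28% of all genes; 5 had an unadjusted p under 0.05, and voom on the recovered reads called 2 members in all. In GLUT3KO acetate raised 3 members and lowered 2, against 4.86% and 7.89% of all genes. Acetate raised 2 and lowered 2 in ACLYKO, against 11.7% and 5.6%. The libraries with and without acetate did not overlap for 7 members in WT, 8 in GLUT3KO and 5 in ACLYKO, against 41.2%, 44.6% and 27.7% of all genes. Among cells given acetate, GLUT3KO differed from WT in 6 members, 3 higher and 3 lower, against 20.9% and 9.5% of all genes, and 7 members did not overlap, against 71.2%. ACLYKO with acetate had 0 members higher and 1 lower than WT with acetate, against 11.5% and 1.98%, and 4 members did not overlap, against 54.1%; 2 had an unadjusted p under 0.05, and voom called 1 in all.

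**Figure D3:**
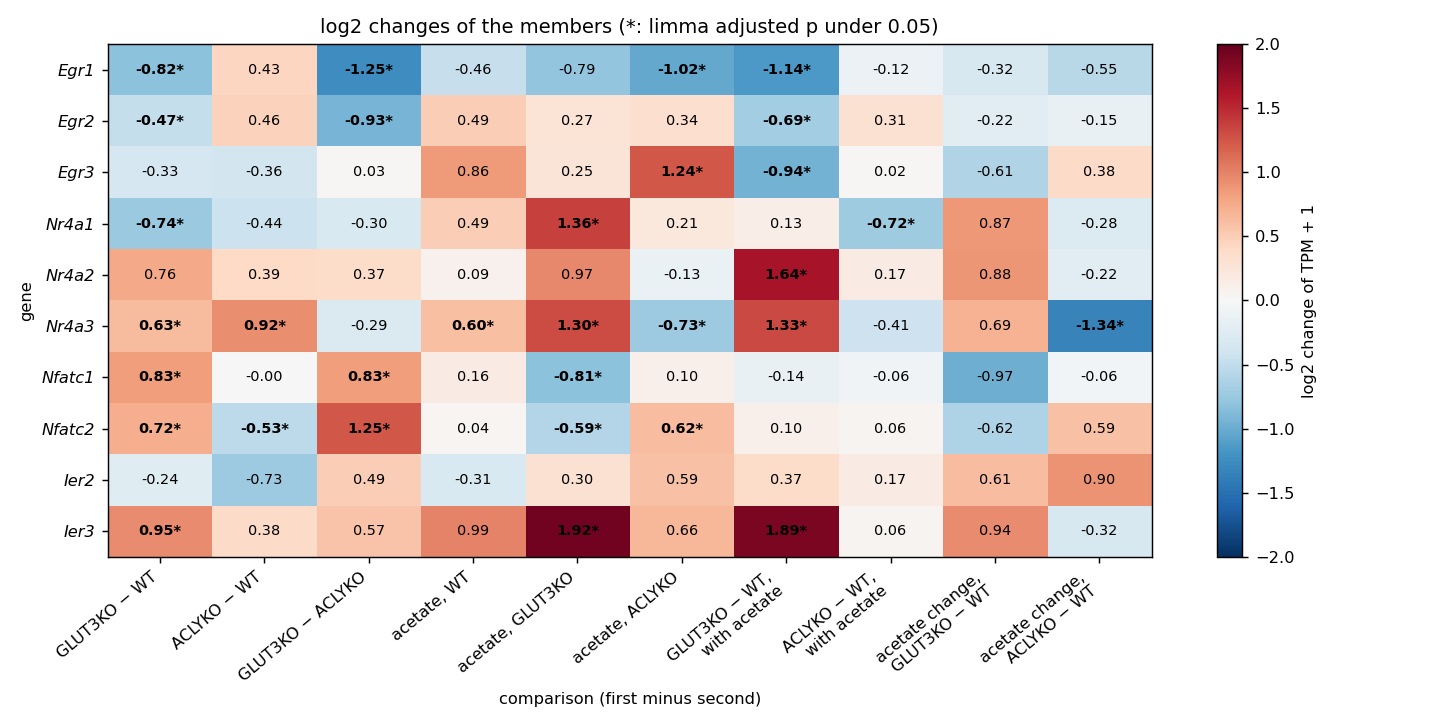
Differences of log2(TPM + 1) for the 10 members (rows) in the 10 comparisons (columns), red where the first group was higher and blue where it was lower; an asterisk marks a limma adjusted p under 0.05. In the columns with GLUT3KO the called differences range from -1.25 for Egr1 against ACLYKO to 1.92 for Ier3 with acetate.

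Nr4a1 (gene 15370, chr15:101253902-101274795, plus strand), also known as Nur77 and widely used as a reporter of antigen receptor signalling, was lower in GLUT3KO than in WT and rose there with acetate. In WT it stood at 18.4, 12.5 and 16.5 TPM in replicates 1, 2 and 3, and in GLUT3KO at 8.33, 8.58 and 10.1 TPM. Every GLUT3KO library was below every WT library, and the difference was -0.74 ± 0.15 (limma adjusted p = 0.00177). With acetate the GLUT3KO libraries rose to 21.5, 29.9 and 23.1 TPM, a change of 1.36 ± 0.15 (limma adjusted p = 5.82e-05). They then overlapped the WT libraries with acetate, at 22.2, 22.5 and 22.3 TPM, and differed from them by 0.13 ± 0.15 (limma adjusted p = 0.562). ACLYKO libraries held 11.5, 11.6 and 10.7 TPM without acetate and 14.8, 13.0 and 11.9 TPM with it. Those with acetate were below every WT library with acetate, by -0.72 ± 0.15 (limma adjusted p = 0.00587), and the differences of ACLYKO from WT without acetate (-0.44, limma adjusted p = 0.0613) and of acetate in ACLYKO (0.21, limma adjusted p = 0.387) were not called. Against WT it was called with median-ratio scaling (-0.50, limma adjusted p = 0.0254), quantile normalization, voom and without WT replicate 2 (-0.59, limma adjusted p = 0.0236). Acetate in WT gave 0.49 (limma adjusted p = 0.0773), which was 0.60 without the high-axis libraries (limma adjusted p = 0.0138) and 0.49 without ACLYKO replicate 1 alone (limma adjusted p = 0.0343).

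Nr4a3 (gene 18124, chr4:48045078-48086447, plus strand), which encodes NOR1 and is strongly calcium-dependent in T cells, was higher in both knockouts than in WT. Its libraries held 11.0, 9.40 and 8.52 TPM in WT, 13.5, 15.3 and 17.7 TPM in GLUT3KO and 17.5, 21.5 and 18.4 TPM in ACLYKO. Every knockout library was above every WT library, with differences of 0.63 ± 0.16 in GLUT3KO (limma adjusted p = 0.00702) and 0.92 ± 0.16 in ACLYKO (limma adjusted p = 0.000992). Acetate then moved it in opposite directions. In GLUT3KO it rose to 31.4, 46.5 and 42.0 TPM (1.30 ± 0.16, limma adjusted p = 0.000129), and in WT to 15.8, 14.4 and 15.2 TPM (0.60 ± 0.16, limma adjusted p = 0.0368). In ACLYKO it fell to 9.94, 12.8 and 10.7 TPM (-0.73 ± 0.16, limma adjusted p = 0.00532). Between libraries of the same replicate number the ACLYKO change was -0.76, -0.71 and -0.73, lower in 3 of 3, while all 3 WT and all 3 GLUT3KO numbers were higher with acetate. The acetate change in ACLYKO differed from that in WT by -1.34 ± 0.23 (limma adjusted p = 0.00935), the 1 member called lower in that comparison against 0.562% of all genes, with 0 called higher against 0.780%. Of the Nr4a3 results, that difference and both GLUT3KO acetate results held in all 28 alternative analyses. The GLUT3KO difference without acetate was 0.34 under quantile normalization (limma adjusted p = 0.107) and 0.40 with voom on recovered reads (limma adjusted p = 0.155). In fits of the compared groups alone the ACLYKO calls had limma adjusted p of 0.0766 against WT and 0.124 for acetate, and the WT acetate call was lost in 7 of 18 fits that left out 1 library, with limma adjusted p up to 0.131.

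Nr4a2 (gene 18227, chr2:57106830-57124003, minus strand), which encodes NURR1, was scarce in WT and highest in GLUT3KO with acetate. The WT libraries held 5.02, 4.16 and 5.62 TPM, those of GLUT3KO 10.0, 6.90 and 10.5 TPM, and those of GLUT3KO with acetate 16.0, 21.4 and 18.7 TPM. These 3 groups did not overlap one another. With acetate GLUT3KO exceeded WT, at 5.20, 4.93 and 5.69 TPM, by 1.64 ± 0.32 (limma adjusted p = 0.00117). The acetate change within GLUT3KO, 0.97 ± 0.32, was not called in the fit of group means (limma adjusted p = 0.0612) but was with a block for replicate number (limma adjusted p = 0.0215) and without the high-axis libraries (1.03, limma adjusted p = 0.00115). GLUT3KO against WT without acetate gave 0.76 ± 0.32 (limma adjusted p = 0.0817), and 0.71 without the high-axis libraries (limma adjusted p = 0.00754). Leaving out ACLYKO replicate 1 alone was enough for both calls (limma adjusted p = 0.00254 for acetate and 0.00458 against WT). In ACLYKO the libraries held 14.1, 4.81 and 4.27 TPM, so its mean of 7.74 TPM was set by replicate 1, a high-axis library.

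As a family, the NR4A transcripts summed to 30.4 ± 4.21 TPM in WT, 33.7 ± 4.07 TPM in GLUT3KO and 38.2 ± 4.89 TPM in ACLYKO. These sums overlapped. The Nr4a1 share of each WT library was above that of every knockout library, while the knockouts overlapped each other. Nr4a1 made up 51.8 ± 3.28% of the family in WT, 26.8 ± 0.943% in GLUT3KO and 29.8 ± 2.84% in ACLYKO. With acetate the sum was 42.7 ± 0.825 TPM in WT, 83.5 ± 14.5 TPM in GLUT3KO and 30.6 ± 2.99 TPM in ACLYKO. The ratio of Nr4a3 to Nr4a1 was 1.72 ± 0.0870 in GLUT3KO and 1.61 ± 0.190 with acetate. It was 1.69 ± 0.163 and 0.851 ± 0.161 in ACLYKO, where the libraries with and without acetate did not overlap. The WT ratio was 0.622 ± 0.119 without and 0.678 ± 0.0365 with acetate.

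**Figure D4:**
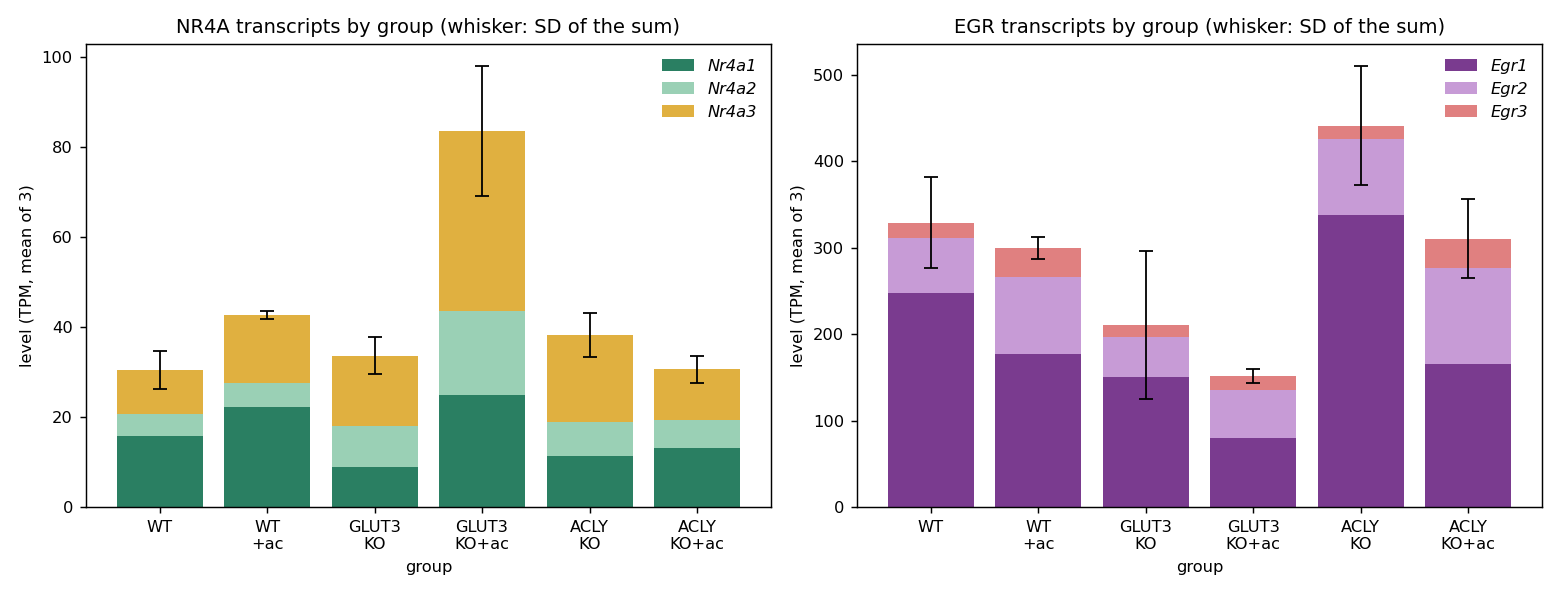
Summed levels in TPM (vertical axes) of the NR4A genes (left) and EGR genes (right) in the 6 groups (horizontal axes), stacked by gene from the means of 3 libraries, with the SD of the sum as a whisker. The NR4A sum reached 83.5 TPM in GLUT3KO with acetate, and Egr1 made up most of each EGR sum.

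Egr1 (gene 13653), a fast-induced target of ERK signalling, was lower in GLUT3KO than in WT, and lower with acetate in ACLYKO. The libraries held 305, 219 and 221 TPM in WT, 241, 90.3 and 121 TPM in GLUT3KO and 440, 302 and 271 TPM in ACLYKO. The first value of each, a high-axis library, was the highest of its group, and GLUT3KO replicate 1 overlapped WT. GLUT3KO was below WT by -0.82 ± 0.30 (limma adjusted p = 0.0461), a call lost in 14 of 18 fits that left out 1 library, with limma adjusted p up to 0.184. Without the high-axis libraries it was -1.06 (limma adjusted p = 7.86e-05). Against ACLYKO the GLUT3KO libraries were lower in every pair, by -1.25 ± 0.30 (limma adjusted p = 0.00362; 0.0974 in a fit of those groups alone).

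With acetate Egr1 was 167, 190 and 177 TPM in WT, 89.1, 70.1 and 81.6 TPM in GLUT3KO and 212, 141 and 145 TPM in ACLYKO. It was lower with acetate in all 9 pairs of libraries with the same genotype and number, and the groups with and without acetate did not overlap in any genotype. The change was called in ACLYKO (-1.02 ± 0.30, limma adjusted p = 0.0284), but not in WT (-0.46, limma adjusted p = 0.452) or in GLUT3KO (-0.79, limma adjusted p = 0.0978). With a block for replicate number the GLUT3KO change was called (limma adjusted p = 0.0437); without the high-axis libraries it was -0.39 (limma adjusted p = 0.0373) and that in ACLYKO had a limma adjusted p of 0.000384. The ACLYKO call was lost without ACLYKO replicate 1 (-0.81, limma adjusted p = 0.0852) and without replicates 2 or 3 of ACLYKO with acetate (limma adjusted p = 0.105 and 0.103). It was also lost in a fit of the ACLYKO groups alone (limma adjusted p = 0.150). Among cells given acetate, GLUT3KO was below WT by -1.14 ± 0.30 (limma adjusted p = 0.00876), a call kept in all alternatives.

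Egr2 (gene 13654, chr10:67534469-67542188, plus strand) and Egr3 (gene 13655, chr14:70077317-70082613, plus strand) showed another pattern than Egr1 under acetate. Egr2 stood at 66.2, 63.8 and 58.6 TPM in WT, 49.4, 38.1 and 48.5 TPM in GLUT3KO and 68.2, 108 and 89.1 TPM in ACLYKO. GLUT3KO was the lowest group without overlap, at -0.47 ± 0.16 against WT (limma adjusted p = 0.0328) and -0.93 ± 0.16 against ACLYKO (limma adjusted p = 0.000264). The call against WT was lost without any 1 of the 3 WT libraries or without GLUT3KO replicate 2, with limma adjusted p up to 0.120, while that against ACLYKO was kept in all alternatives. With acetate the Egr2 libraries held 85.6, 88.8 and 92.3 TPM in WT, 49.6, 55.4 and 59.6 TPM in GLUT3KO and 117, 100.3 and 114 TPM in ACLYKO. GLUT3KO was again below WT, by -0.69 ± 0.16 (limma adjusted p = 0.00378). Acetate itself gave uncalled Egr2 differences of 0.49 in WT (limma adjusted p = 0.0814), 0.27 in GLUT3KO (limma adjusted p = 0.268) and 0.34 in ACLYKO (limma adjusted p = 0.163). In WT that difference was called without the high-axis libraries (0.53, limma adjusted p = 0.0113) and without ACLYKO replicate 1 alone (limma adjusted p = 0.0109). Egr2 in ACLYKO against WT, 0.46 (limma adjusted p = 0.0553), was called at 0.67 without the high-axis libraries (limma adjusted p = 0.00263), at 0.63 without ACLYKO replicate 1 alone (limma adjusted p = 0.00285) and without GLUT3KO replicate 2 (limma adjusted p = 0.0460). The long noncoding RNA Gm32255 overlaps Egr2 on the other strand at 0.783 to 4.24 TPM, and whether reads were counted by strand is not stated in the labels or headers.

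Egr3 was 18.7, 19.4 and 16.1 TPM in WT and 34.1, 33.8 and 32.5 TPM in WT with acetate. These libraries were far apart, yet the change of 0.86 ± 0.29 was not called (limma adjusted p = 0.0979). Without the high-axis libraries it was 0.88 (limma adjusted p = 0.000850), and leaving out ACLYKO replicate 1 alone, which has no part in the 2 means, gave a limma adjusted p of 0.000274. That library held 6.49 TPM of Egr3 against 22.7 and 17.3 TPM in the other ACLYKO libraries, and it enters the shared estimate of spread. In ACLYKO acetate raised Egr3 to 32.5, 33.7 and 35.7 TPM (1.24 ± 0.29, limma adjusted p = 0.00771). The change was 0.78 without the high-axis libraries (limma adjusted p = 0.00171). That call was not made in a fit of those groups alone (limma adjusted p = 0.244). GLUT3KO remained low, at 15.4, 12.6 and 14.3 TPM without and 14.96, 17.9 and 18.1 TPM with acetate, and its change of 0.25 was not called (limma adjusted p = 0.581). Against WT without acetate it gave -0.33 (limma adjusted p = 0.400), called without ACLYKO replicate 1 (limma adjusted p = 0.0288). With acetate GLUT3KO was below WT by -0.94 ± 0.29 (limma adjusted p = 0.0220), a call lost without any 1 of the 3 WT libraries with acetate or without GLUT3KO replicate 1 with acetate, with limma adjusted p up to 0.0788.

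The composition of the EGR family is given as a description, with no test. The ratio of Egr1 to Egr2 was 3.93 ± 0.607 in WT and 2.00 ± 0.119 with acetate, 3.25 ± 1.42 and 1.48 ± 0.283 in GLUT3KO, and 4.10 ± 2.04 and 1.49 ± 0.288 in ACLYKO. In each genotype every library without acetate had a higher ratio than every library with it. Egr3 made up 5.55 ± 0.819% of the EGR transcripts in WT and 11.2 ± 0.638% with acetate. The corresponding shares were 7.25 ± 2.00% and 11.2 ± 1.38% in GLUT3KO and 3.70 ± 2.14% and 11.1 ± 1.86% in ACLYKO.

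**Figure D5:**
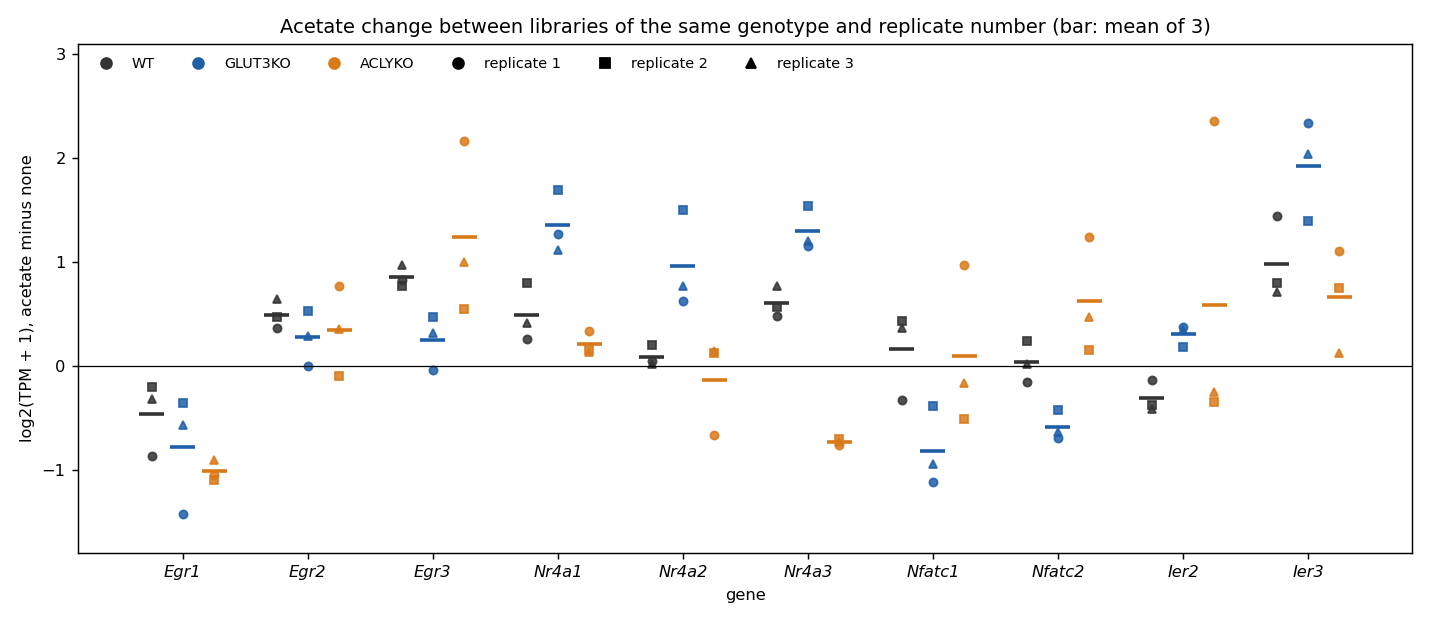
Acetate change of log2(TPM + 1) (vertical axis) between libraries of the same genotype and replicate number for the 10 members (horizontal axis); color marks the genotype, shape the replicate number and the bar the mean of 3. All 9 points of Egr1 lie below 0, and the 3 ACLYKO points of Nr4a3 lie near -0.73 while its WT and GLUT3KO points lie above 0.

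Nfatc1 (gene 18018), the NFAT gene that is itself induced by activation, and Nfatc2 (gene 18019, chr2:168476410-168601657, minus strand), which is present in resting T cells, were highest in GLUT3KO without acetate. Nfatc1 was 54.5, 36.3 and 38.7 TPM in WT and 89.3, 60.0 and 82.7 TPM in GLUT3KO, a difference of 0.83 ± 0.23 (limma adjusted p = 0.0130). Nfatc2 was 17.5, 14.5 and 14.4 TPM in WT and 28.5, 23.4 and 26.3 TPM in GLUT3KO, a difference of 0.72 ± 0.17 (limma adjusted p = 0.00506). For both genes every GLUT3KO library lay above every WT library. The Nfatc2 libraries of GLUT3KO also lay above those of all other groups, while for Nfatc1 the lowest of them, 60.0 TPM, was below 1 library of ACLYKO with acetate, at 60.7 TPM. The Nfatc1 call was lost without WT replicates 2 or 3 or GLUT3KO replicates 1 or 3, with limma adjusted p up to 0.0633. It was also lost with voom on recovered reads (limma adjusted p = 0.0676), and was kept without the 4 high-axis libraries together (0.89, limma adjusted p = 0.000306). The Nfatc2 difference was 0.42 under quantile normalization (limma adjusted p = 0.0540).

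With acetate both genes were lower in GLUT3KO. Nfatc1 was 40.6, 45.8 and 42.5 TPM (-0.81 ± 0.23, limma adjusted p = 0.0338), and Nfatc2 17.2, 17.1 and 16.6 TPM (-0.59 ± 0.17, limma adjusted p = 0.0400). Neither differed by a called amount from WT with acetate, at -0.14 (limma adjusted p = 0.693) and 0.10 (limma adjusted p = 0.718). The acetate calls were not made with a block for replicate number (limma adjusted p = 0.0873 for Nfatc1 and 0.0824 for Nfatc2), nor in 5 and 10 of the 18 fits that left out 1 library, with limma adjusted p up to 0.139 and 0.148. With no filter or with voom on recovered reads neither call was made. The Nfatc2 call was also not made with median-ratio scaling or quantile normalization. Without the 4 high-axis libraries the changes were -0.70 for Nfatc1 (limma adjusted p = 0.00219) and -0.52 for Nfatc2 (limma adjusted p = 0.00262).

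Nfatc2 had its lowest group mean in ACLYKO, at 9.11, 12.4 and 9.89 TPM, below WT by -0.53 ± 0.17 (limma adjusted p = 0.0473) and below GLUT3KO by 1.25 ± 0.17 on the log2 scale (limma adjusted p = 4.72e-05). The call against WT was lost in 15 of 18 fits that left out 1 library, with limma adjusted p up to 0.122, while that against GLUT3KO was kept in all alternatives. Nfatc1 in ACLYKO was 30.4, 54.7 and 45.6 TPM, which overlapped WT. The difference from WT was -0.00 with all libraries but 0.40 without the high-axis libraries (limma adjusted p = 0.0445) and without all libraries of positive axis score (limma adjusted p = 0.0139). GLUT3KO exceeded ACLYKO in Nfatc1 by 0.83 ± 0.23 (limma adjusted p = 0.0102), or by 0.49 without the high-axis libraries (limma adjusted p = 0.0129). That call was not made in a fit of those groups alone. Without all libraries of positive axis score, which leaves 1 GLUT3KO library, the difference was 0.26. Acetate raised Nfatc2 in ACLYKO to 22.9, 13.9 and 14.1 TPM (0.62 ± 0.17, limma adjusted p = 0.0223), where the first library is a high-axis one. That call was not made with a block for replicate number (limma adjusted p = 0.0636) or without replicates 1 or 3 of ACLYKO (limma adjusted p = 0.0501 and 0.0511) or replicate 1 of ACLYKO with acetate (limma adjusted p = 0.0870). It was also not made in a fit of the ACLYKO groups alone. Without the high-axis libraries the change was 0.32 (limma adjusted p = 0.0499). Over all 5 NFAT genes, Nfatc1 held 28.6 ± 0.238% and Nfatc2 10.4 ± 1.12% of the NFAT transcripts in WT, and 27.4 ± 2.02% and 9.34 ± 0.712% in GLUT3KO. The family sum was 282 ± 49.2 TPM in GLUT3KO against 151 ± 34.5 TPM in WT. That sum includes genes that are not members. Nfatc3 held 35.5 ± 0.995% in WT and 29.7 ± 2.37% in GLUT3KO, and Nfat5 25.6 ± 1.47% and 33.6 ± 3.17%.

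Ier3 (gene 15937, chr17:35821713-35822911, plus strand), which encodes the immediate early protein IEX-1, a regulator of ERK signalling and survival, had the widest range among the members, its highest library holding 11.6 times the TPM of its lowest. It was 21.6, 30.3 and 24.8 TPM in WT, 36.6, 75.0 and 45.2 TPM in GLUT3KO and 189, 199 and 189 TPM in GLUT3KO with acetate. The 3 groups did not overlap, and acetate changed it in GLUT3KO by 1.92 ± 0.35 (limma adjusted p = 0.00257). WT with acetate held 60.3, 53.6 and 41.3 TPM, and GLUT3KO with acetate exceeded it by 1.89 ± 0.35 (limma adjusted p = 0.000802). Both calls were kept in all 28 alternatives. The difference of GLUT3KO from WT without acetate, 0.95 ± 0.35, was barely called (limma adjusted p = 0.0497) and lost in 13 of 18 fits that left out 1 library (limma adjusted p up to 0.177). That call was also lost with a pseudocount of 0.1, no filter, median-ratio scaling, quantile normalization and voom (limma adjusted p up to 0.2525). The difference was 1.06 without the high-axis libraries (limma adjusted p = 0.00254). Acetate in WT gave 0.99 (limma adjusted p = 0.122), although the libraries did not overlap; it was 0.87 without the high-axis libraries (limma adjusted p = 0.0152). Leaving out ACLYKO replicate 1 alone gave a limma adjusted p of 0.0177. In ACLYKO, Ier3 was 17.1, 42.3 and 50.4 TPM without and 38.0, 72.1 and 55.0 TPM with acetate, groups that overlapped. ACLYKO against WT gave 0.38 (limma adjusted p = 0.475), or 0.84 without ACLYKO replicate 1 (limma adjusted p = 0.0447).

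Ier2 (gene 15936, chr8:84661331-84662852, minus strand), a growth-factor-induced nuclear protein, was abundant and had no called difference in any comparison. It was 178, 218 and 186 TPM in WT, 145, 191 and 157 TPM in GLUT3KO and 33.1, 216 and 216 TPM in ACLYKO. The ACLYKO mean of 155 ± 105 TPM was set by replicate 1, the library with the highest axis score. With acetate the groups had means of 156 ± 14.9, 202 ± 14.5 and 175 ± 5.86 TPM in WT, GLUT3KO and ACLYKO. Without the high-axis libraries 3 differences of Ier2 were called: acetate in WT (-0.37, limma adjusted p = 0.0420), GLUT3KO against WT with acetate (0.37, limma adjusted p = 0.00882) and GLUT3KO against ACLYKO (-0.32, limma adjusted p = 0.0471). The last of these was 0.49 with all libraries, the opposite sign (limma adjusted p = 0.458), and -0.40 without ACLYKO replicate 1 alone (limma adjusted p = 0.0191). The GLUT3KO difference from WT with acetate was likewise called without that library alone (limma adjusted p = 0.0181).

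The test of whether acetate acted otherwise in GLUT3KO than in WT called 0 members higher and 0 lower, against 0.225% and 0.548% of all genes. An unadjusted p under 0.05 was found for 4 members, and voom on recovered reads called 0. The smallest p was that of Nr4a1, at 0.87 ± 0.22 (limma adjusted p = 0.0988), which passed without ACLYKO replicate 1 (limma adjusted p = 0.0446). Without the high-axis libraries Nfatc1 (-1.04, limma adjusted p = 0.0124) and Nfatc2 (-0.64, limma adjusted p = 0.0284) passed and Nr4a1 did not (0.71, limma adjusted p = 0.0660). In the same test for ACLYKO, which called Nr4a3, 2 members had an unadjusted p under 0.05.

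Across all 18 libraries the levels of some members ran together. Pearson's r on log2(TPM + 1) was 0.807 for Nfatc1 and Nfatc2, 0.786 for Nr4a3 and Ier3, 0.748 for Nr4a2 and Nr4a3, and 0.711 for Egr2 and Egr3. It was -0.886 for Egr1 and Ier3. Within the NR4A family Nr4a1 followed the others less closely, at 0.442 with Nr4a3 and 0.295 with Nr4a2. These values describe libraries that share groups, depth and the axis above, and no test was made. Among genes with a mean of at least 5 TPM, the one most like Nr4a1 was Il17f (r = 0.862), followed by Il17a (r = 0.833), the signature Th17 cytokines, at 104 to 1822 and 38.2 to 2111 TPM. The nearest to Nr4a3 was Ets2 (r = 0.884), to Nr4a2 Myl12a (r = 0.923), to Ier3 Atp6v0b (r = 0.952) and to Ier2 Atf6b (r = 0.964). The gene most like Egr1 was Ahsa1 (r = 0.955), for Egr2 it was Inip (r = 0.962), for Egr3 Slc25a1 (r = 0.962), for Nfatc1 Ski (r = 0.941) and for Nfatc2 Selplg (r = 0.938).

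Genes around these factors were summarised in 4 lists. The shares of all genes to read them against are 24.9% higher and 8.47% lower in GLUT3KO against WT, and 12.7% and 6.38% in ACLYKO against WT. For acetate they are 4.22% and 2.28% in WT, 4.86% and 7.89% in GLUT3KO, and 11.7% and 5.6% in ACLYKO. Of the calcineurin and NFAT signalling list, 25 of 30 genes were tested, and GLUT3KO without acetate had 13 higher and 0 lower than WT, with a median of 0.64 against 0.17 over all genes. The catalytic subunit gene Ppp3ca was 19.0 ± 1.67 against 4.28 ± 0.881 TPM (1.93 ± 0.18, limma adjusted p = 1.58e-06). The calcium release channel gene Itpr3 was 33.1 ± 4.96 against 7.29 ± 1.77 TPM (2.05 ± 0.19, limma adjusted p = 1.62e-06). Rcan1, a feedback inhibitor of calcineurin that is itself an NFAT target, was 9.51 ± 1.82 TPM in WT, 22.6 ± 1.90 TPM in GLUT3KO and 20.02 ± 2.205 TPM in ACLYKO, higher in both (limma adjusted p = 2.98e-05 and 0.000338). Acetate raised Rcan1 in WT to 17.2 ± 1.07 TPM (limma adjusted p = 0.00510) and in GLUT3KO to 47.8 ± 8.71 TPM (limma adjusted p = 0.000532). In GLUT3KO acetate lowered Itpr2 from 8.55 ± 1.65 to 4.03 ± 0.212 TPM (limma adjusted p = 0.0133). Ppp3cb fell there from 87.9 ± 7.32 to 55.3 ± 2.98 TPM (limma adjusted p = 0.0212). In ACLYKO against WT the list had 5 higher and 1 lower, the kinase gene Dyrk2 at 3.66 ± 0.827 against 11.9 ± 0.905 TPM (limma adjusted p = 4.28e-06). With acetate the list had 1 higher and 0 lower in WT, 1 and 2 in GLUT3KO, and 6 and 0 in ACLYKO. Leaving out the high-axis libraries gave 8 and 0, 7 and 8, and 6 and 3, and ACLYKO against WT had 12 and 1. With median-ratio scaling ACLYKO against WT had 5 and 3.

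The ERK and protein kinase C list, all 28 of whose genes were tested, had 13 higher and 1 lower in GLUT3KO against WT, with a median of 0.50 against 0.17. Rasgrp1, the diacylglycerol-responsive Ras activator, was 68.7 ± 3.97 against 13.7 ± 1.99 TPM (2.25 ± 0.15, limma adjusted p = 3.85e-08), and the ERK pathway inhibitor gene Spred1 was 141 ± 15.5 against 54.9 ± 3.52 TPM (1.34 ± 0.12, limma adjusted p = 1.34e-06). In ACLYKO 3 were higher and 5 lower, among them Prkca at 58.2 ± 7.66 against 20.8 ± 3.20 TPM (limma adjusted p = 8.04e-05) and Prkch at 76.9 ± 14.1 against 159 ± 21.6 TPM (limma adjusted p = 0.000291). With acetate 3 rose and 0 fell in WT, 4 and 1 in GLUT3KO, and 9 and 0 in ACLYKO. These counts were 6 and 2, 6 and 4, and 9 and 2 without the high-axis libraries, and ACLYKO against WT then had 6 and 7. Prkcb rose with acetate in WT from 8.24 ± 1.59 to 18.02 ± 0.402 TPM (limma adjusted p = 0.00634) and in ACLYKO from 8.86 ± 2.58 to 27.7 ± 4.97 TPM (limma adjusted p = 9.61e-05).

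Of 40 other immediate early genes 39 were tested, and 17 were higher and 4 lower in GLUT3KO against WT, with a median of 0.46 against 0.17. Klf4 was 24.3 ± 2.14 against 3.17 ± 0.156 TPM (2.60 ± 0.18, limma adjusted p = 9.19e-08) and the MAP kinase phosphatase gene Dusp1 18.7 ± 2.12 against 8.50 ± 0.844 TPM (limma adjusted p = 9.96e-05). In ACLYKO 8 were higher and 3 lower, with Dusp1 at 16.2 ± 3.45 TPM (limma adjusted p = 0.00145). With acetate 2 rose and 0 fell in WT, 5 and 2 in GLUT3KO, and 3 and 7 in ACLYKO. With the high-axis libraries left out these were 9 and 4, 18 and 6, and 5 and 13, and ACLYKO against WT had 16 and 3. With median-ratio scaling the GLUT3KO acetate count was 13 and 3. Fosl2, an AP-1 subunit gene, rose with acetate in WT from 15.9 ± 1.32 to 32.9 ± 1.22 TPM (limma adjusted p = 0.0240) and in GLUT3KO from 35.6 ± 4.04 to 106 ± 6.80 TPM (limma adjusted p = 0.000899). Trib1 rose in WT from 7.34 ± 0.529 to 15.7 ± 0.592 TPM (limma adjusted p = 0.000468) and in ACLYKO from 6.29 ± 1.41 to 19.5 ± 0.901 TPM (limma adjusted p = 4.20e-06). Others fell with acetate. In ACLYKO Klf2 went from 3.00 ± 1.03 to 0.193 ± 0.0539 TPM (limma adjusted p = 5.35e-05). Rgs2 went there from 157 ± 73.8 to 42.3 ± 1.93 TPM (limma adjusted p = 0.000161). In GLUT3KO Plk2 went from 128 ± 17.4 to 72.6 ± 8.59 TPM (limma adjusted p = 0.00415).

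Known targets of NFAT, EGR and NR4A factors formed the last list, with 28 of 29 genes tested. In GLUT3KO against WT 13 were higher and 3 lower, with a median of 0.54 against 0.17. Nrn1, which encodes neuritin, was 796 ± 132 against 81.9 ± 15.1 TPM (limma adjusted p = 5.72e-09), Crtam 94.8 ± 26.0 against 7.63 ± 2.26 TPM (limma adjusted p = 5.25e-08) and the 4-1BB gene Tnfrsf9 367 ± 67.5 against 81.9 ± 4.84 TPM (limma adjusted p = 1.45e-07). Tnfrsf9 fell in ACLYKO, to 26.3 ± 3.58 TPM (limma adjusted p = 8.23e-06), where 7 of the list were higher and 2 lower. With acetate 7 rose and 1 fell in WT, 6 and 2 in GLUT3KO, and 13 and 1 in ACLYKO. The counts without the high-axis libraries were 15 and 2, 9 and 6, and 13 and 2, and 11 and 3 in ACLYKO against WT. Il2 rose with acetate in GLUT3KO from 434 ± 96.4 to 2409 ± 53.3 TPM (2.49 ± 0.32, limma adjusted p = 0.000161), Fasl in WT from 1.47 ± 0.149 to 7.05 ± 0.291 TPM (limma adjusted p = 0.000111), and Nrn1 in ACLYKO from 88.3 ± 7.43 to 368 ± 17.4 TPM (limma adjusted p = 3.03e-06). In GLUT3KO against WT the median over all genes went from 0.17 to -0.02 with median-ratio scaling, and the split of called genes went from 3548 higher and 1205 lower to 2631 and 2236. With that scaling the GLUT3KO counts of the 4 lists, in the order above, were 10 and 1, 8 and 2, 14 and 8, and 12 and 4. Without the high-axis libraries they were 21 and 0, 19 and 3, 21 and 8, and 17 and 5, beside 5911 genes higher and 2634 lower in all. Calls over all genes without these libraries were 4183 higher and 1408 lower in ACLYKO against WT. For acetate they were 1581 and 1243 in WT, 1654 and 3491 in GLUT3KO, and 2047 and 2448 in ACLYKO. Median-ratio scaling turned the split of acetate calls in GLUT3KO from 691 higher and 1122 lower to 1081 and 756.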

How the data were processed

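Polyadenylated RNA of 18 Th17 libraries, 3 in each of 6 groups, was sequenced as single ends (stranded kit, per the labels' protocols). The submitters' processing notes list STAR 2.7.2b and featureCounts 1.6.4 (with Subread), the build GRCm38.p6, DESeq2, cutadapt and bcl2fastq 2.20.0.422, with no roles; whether counting used strand is not stated there. Levels were deposited by the authors as TPM written with decimal commas and recorded as the unit other; exon length in bases, also of unit other, was deposited beside them. TPM times exon length, divided by the value of 1 read in each library, gave whole reads within 0.01 in 100% of values under 500 reads, 18.7 to 30.1 M per library.

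Genes with at least 1 TPM in at least 3 libraries (14229) were fitted as group means of log2(TPM + 1), pseudocount 1, over all 18 libraries with limma 3.58.1 (R 4.3.3). Each of 10 comparisons was adjusted on its own by the Benjamini-Hochberg method and read at a threshold of 0.05. The code was tested on simulated data. The members, the lists and the tests were chosen with earlier results of these data known. From each list the 3 genes with the smallest p per comparison could be named, and for each member the 3 genes most like it, of which the nearest or the first ones are given. The 3 libraries of each group were compared with each other for duplication, and none was found. Libraries of different groups were not compared in this way.

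All 9 pairs of libraries with the same genotype and replicate number, without and with acetate, had correlated residuals (0.120 to 0.548). Correlations between different numbers were not computed, and pairs from different genotypes reached 0.801. These values therefore do not show that the numbers pair libraries. A block for genotype and number, which treats the numbers as pairs, was an alternative for acetate. Between genotypes the alternative had a block for number alone. Without acetate, WT and ACLYKO pairs correlated at 0.285 to 0.577, GLUT3KO and WT pairs at -0.354 to 0.721, and GLUT3KO and ACLYKO pairs at -0.174 to 0.635. Of 36 pairs from different genotypes, 13 exceeded 0.1 (-0.354 to 0.801). Other alternatives were a pseudocount of 0.1, no filter, a mean of at least 5 TPM, median-ratio scaling, quantile normalization, voom on recovered reads, fits of the compared groups alone, and leaving out each library, the 8 with a positive axis score, or (added after seeing the data) the 4 above 20.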

Additional observations from a re-analysis of the deposited data

Results flagged for a closer look

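The acetate change of Nr4a3 differed between ACLYKO and WT by -1.34 on the log2 scale, and a test of that difference between genotypes was passed (limma adjusted p = 0.00935). Levels went from 9.65 ± 1.27 to 15.1 ± 0.717 TPM in WT and from 19.1 ± 2.09 to 11.1 ± 1.47 TPM in ACLYKO (SD, n = 3), so acetate moved them in opposite directions, in 3 of 3 replicate numbers each. The difference lay between -1.54 and -1.25 in all 28 alternatives.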

How the results depend on the processing

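Of 100 results (10 members in 10 comparisons) 31 were called, and 13 of these kept their call in all 28 alternatives, while 18 lost it in at least 1. None of the 31 changed sign. Of the 69 uncalled results 26 were called with the same sign in some alternative, and 5 others were called with the opposite sign. A change of sign without a call was seen for 26.

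Called members numbered 7 in GLUT3KO against WT (4 with voom), 2 in ACLYKO against WT (1 with no filter and with a mean of at least 5 TPM, 4 with median-ratio scaling and with quantile normalization, 0 in a fit of those groups alone, 6 without libraries of positive axis score, 5 without those above 20), and 4 in GLUT3KO against ACLYKO (2 in a fit of those groups alone, 7 without the libraries above 20). Acetate in WT called 1 (0 with no filter, 4 with median-ratio scaling, 3 with quantile normalization, 2 with voom, 4 in a fit of those groups alone, 4 without positive scores, 6 without those above 20), acetate in GLUT3KO 5 (3 with no filter) and acetate in ACLYKO 4 (0 in a fit of those groups alone, which has fewer libraries). ACLYKO against WT with acetate called 1 (2 with median-ratio scaling, with quantile normalization, in a fit of those groups alone and without positive scores). The acetate difference between GLUT3KO and WT called 0 (1 with median-ratio scaling, 2 without the libraries above 20), and that between ACLYKO and WT 1 (2 without positive scores).

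Leaving out 1 library at a time gave 3 to 9 members in GLUT3KO against WT, 1 to 3 in ACLYKO against WT, 4 to 7 in GLUT3KO against ACLYKO, 0 to 5 for acetate in WT, 3 to 7 in GLUT3KO and 2 to 5 in ACLYKO. It gave 5 to 7 in GLUT3KO against WT with acetate, 1 to 1 in ACLYKO against WT with acetate, and 0 to 1 and 1 to 1 in the GLUT3KO and ACLYKO acetate differences. Without ACLYKO replicate 1 the counts were 7 in GLUT3KO against ACLYKO, 5 for acetate in WT and 2 for acetate in ACLYKO. Calls over all genes moved with the settings too. In ACLYKO against WT they went from 2715 to 342 in a fit of those groups alone and to 5591 without the libraries above 20. In GLUT3KO against ACLYKO they went from 5746 to 2440 and 8280 in these fits. Leaving out 1 library at a time gave 3458 to 7101 in GLUT3KO against WT, beside 4753 with all libraries. In ACLYKO against WT it gave 1778 to 3606, and both highest counts came without ACLYKO replicate 1.

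The opposite signs were those of Egr3 in GLUT3KO against ACLYKO, 0.03 with all libraries and -0.61, -0.53 and -0.47 without positive scores, without those above 20 and without ACLYKO replicate 1 (-0.47 to 0.37 leaving out 1 library). Ier2 there went from 0.49 to -0.32 without the libraries above 20 and -0.40 without ACLYKO replicate 1 (-0.40 to 0.93 leaving out 1 library). Nfatc1 in ACLYKO against WT went from -0.00 to 0.40 both without positive scores and without those above 20. Without positive scores the acetate change in ACLYKO went from 0.10 to -0.34 for Nfatc1 and from 0.59 to -0.30 for Ier2. Beyond the libraries left out, the cause was not tested. The replicate block left 7, 2, 4, 1, 5, 3, 6, 1, 0 and 1 members called, in the order of the counts that leave out 1 library, and changed no call beyond the 5 given in the report.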
